A study of Mus musculus with 11 samples.

Results

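The 10 genes described here, Adipoq, Cfd, Retn, Lep, Plin1, Cidec, Car3, Fabp4, Ucp1 and Cidea, are textbook transcripts of white and brown fat cells, taken by name as a measure of fat left on the heart. All 10 were found among the 35584 genes of the deposited count table, and 7 of them had a mean of at least 10 normalised counts and entered the 13884 genes tested. The study measured poly(A) RNA of whole hearts, amplified before library preparation, in 11 libraries from male mice aged 8 to 12 weeks. The Macrophage-depleted hearts (n = 3) came from CD169-DTR mice, which carry a diphtheria toxin receptor under the gene for the macrophage lectin CD169 (Siglec1), given diphtheria toxin at 0.01 µg per g of body weight 3 times a week for 3 weeks. The Mertk-KO hearts (n = 2) are labelled as knockouts of Mertk, a receptor for engulfing dying cells, and the LXR-DKO hearts (n = 3; LxRalpha_beta DKO in the labels) as double knockouts of the liver X receptors. The WT hearts (n = 3) had received the same toxin as the CD169-DTR mice, so toxin alone does not separate these groups; whether the knockouts received it was not given in the sources used here. Nothing says whether hearts were trimmed of fat, or that each library came from a separate animal, so the spread behind each p-value may be technical.

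White adipocytes store triglyceride in a single large lipid droplet and release hormones. Brown adipocytes hold many small droplets and burn fatty acids in mitochondria uncoupled by Ucp1. The mouse heart carries little epicardial fat, while pericardial and mediastinal fat lie just outside it and can come away with the organ. Pparg and C/EBP factors drive many adipocyte genes.

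The promoter windows of 4 of the 5 genes whose levels are described together below are shown for comparison, because these windows are where shared motif letters would stand. The sequences are RefSeq's on GRCm38.p6, from 250 bases before to 50 bases after a gene start, 5′ to 3′ on the gene's own strand. Capitals mark matches to TTGCNNAA, a core read by C/EBP factors, and none of the 4 windows holds either other motif searched.
Adipoq: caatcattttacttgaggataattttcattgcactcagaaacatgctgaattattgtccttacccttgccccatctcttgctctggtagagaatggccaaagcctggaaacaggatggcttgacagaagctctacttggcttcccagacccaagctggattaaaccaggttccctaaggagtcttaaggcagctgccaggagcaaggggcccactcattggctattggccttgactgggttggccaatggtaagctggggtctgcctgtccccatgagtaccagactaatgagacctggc
Cfd: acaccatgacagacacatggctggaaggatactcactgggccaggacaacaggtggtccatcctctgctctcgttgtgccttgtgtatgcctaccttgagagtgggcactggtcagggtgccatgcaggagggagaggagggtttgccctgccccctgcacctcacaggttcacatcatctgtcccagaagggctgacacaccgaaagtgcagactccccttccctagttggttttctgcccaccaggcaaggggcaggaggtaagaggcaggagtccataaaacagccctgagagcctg
Plin1: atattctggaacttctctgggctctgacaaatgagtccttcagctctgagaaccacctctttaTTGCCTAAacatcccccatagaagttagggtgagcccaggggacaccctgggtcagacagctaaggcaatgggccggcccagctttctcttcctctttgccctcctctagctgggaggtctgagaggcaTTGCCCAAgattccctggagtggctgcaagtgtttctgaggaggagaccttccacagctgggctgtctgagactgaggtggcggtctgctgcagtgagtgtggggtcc
Cidec: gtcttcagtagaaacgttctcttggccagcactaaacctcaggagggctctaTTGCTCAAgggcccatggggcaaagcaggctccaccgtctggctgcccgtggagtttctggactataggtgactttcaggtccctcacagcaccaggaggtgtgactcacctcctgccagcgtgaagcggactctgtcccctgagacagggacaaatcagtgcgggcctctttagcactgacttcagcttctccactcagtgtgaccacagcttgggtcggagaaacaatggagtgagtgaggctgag
The Adipoq window is chr16:23146286-23146585 (+ strand), Cfd chr10:79890603-79890902 (+), Plin1 chr7:79732727-79733026 (−) and Cidec chr6:113434715-113435014 (−), the downstream of 2 Cidec starts listed. Both strands were searched. Plin1 held TTGCCTAA at −187 and TTGCCCAA at −58 from its start, this Cidec start held TTGCTCAA at −198, and the Adipoq and Cfd windows and the other Cidec start held none. Among the members not printed, Lep held the palindrome TTGCGCAA at −55, read on both strands, and Retn held none. Of all 32851 RefSeq promoter windows of this length, 10.8% hold TTGCNNAA. The direct repeat DR1, bound by PPAR with RXR, is here written as AGGTCA, any base, AGGTCA. It was in 0.0396% of all windows and in none of the 8 member windows searched. Its half-site AGGTCA alone, which overlaps the repeat, was in 16.3% of all windows and, among the members, in Ucp1 at −14. Car3 and Fabp4 had no matched entry, and Cidea was left out of the search. These are matches of letters in short windows and are not shown to be sites.

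The libraries held 10938600 to 20722295 estimated reads. The normalised count is the estimated number of reads scaled to the mean effective library size, so that 1 read is worth between 0.707 and 1.41 normalised counts. Siglec1, the gene of CD169, stood at 33.8, 2.12 and 0.719 normalised counts in Macrophage-depleted libraries 1, 2 and 3, against 64.3, 55.3 and 53.4 in WT libraries, so library 1 kept part of the signal. Nr1h3, which encodes the alpha liver X receptor, averaged 27.7 ± 1.59 normalised counts in LXR-DKO and 162 ± 9.87 in WT libraries (SD, n = 3 each). In the normalised TPM table it averaged 6.54 ± 0.737 in LXR-DKO and 9.57 ± 0.934 in WT libraries, where the limma adjusted p was 0.381. Mertk averaged 82.6 ± 9.73 normalised counts in Mertk-KO libraries (SD, n = 2) and 136 ± 9.60 in WT libraries (SD, n = 3). The deleted part of the gene was not given in the sources used here, and Mertk reads therefore check nothing.

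The members fell into 3 ranges of abundance. Per length, in the deposited normalised TPM, Fabp4 had a median of 574.7 over the 11 libraries and Cidea 24.6, both in every library. Car3 and Cfd had medians of 3.21 and 2.90 TPM, and Cidec, Adipoq and Plin1 of 0.872, 0.534 and 0.489 TPM. Retn had a median of 0.121 TPM, while Lep and Ucp1 had a median of 0. Fabp4, the fatty acid binding protein that fat cells share with capillary endothelium, varied 2.10-fold between its highest and lowest normalised counts. Cidea, a lipid droplet protein of mouse brown fat, varied 1.76-fold. Adipoq varied 54.6-fold, Cfd 45.9-fold, Cidec 17.9-fold, Plin1 13.6-fold and Car3 11.7-fold over the same libraries. The most abundant members were thus the steadiest, and the 5 with wide ranges rested on few reads.

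**Figure D1:**
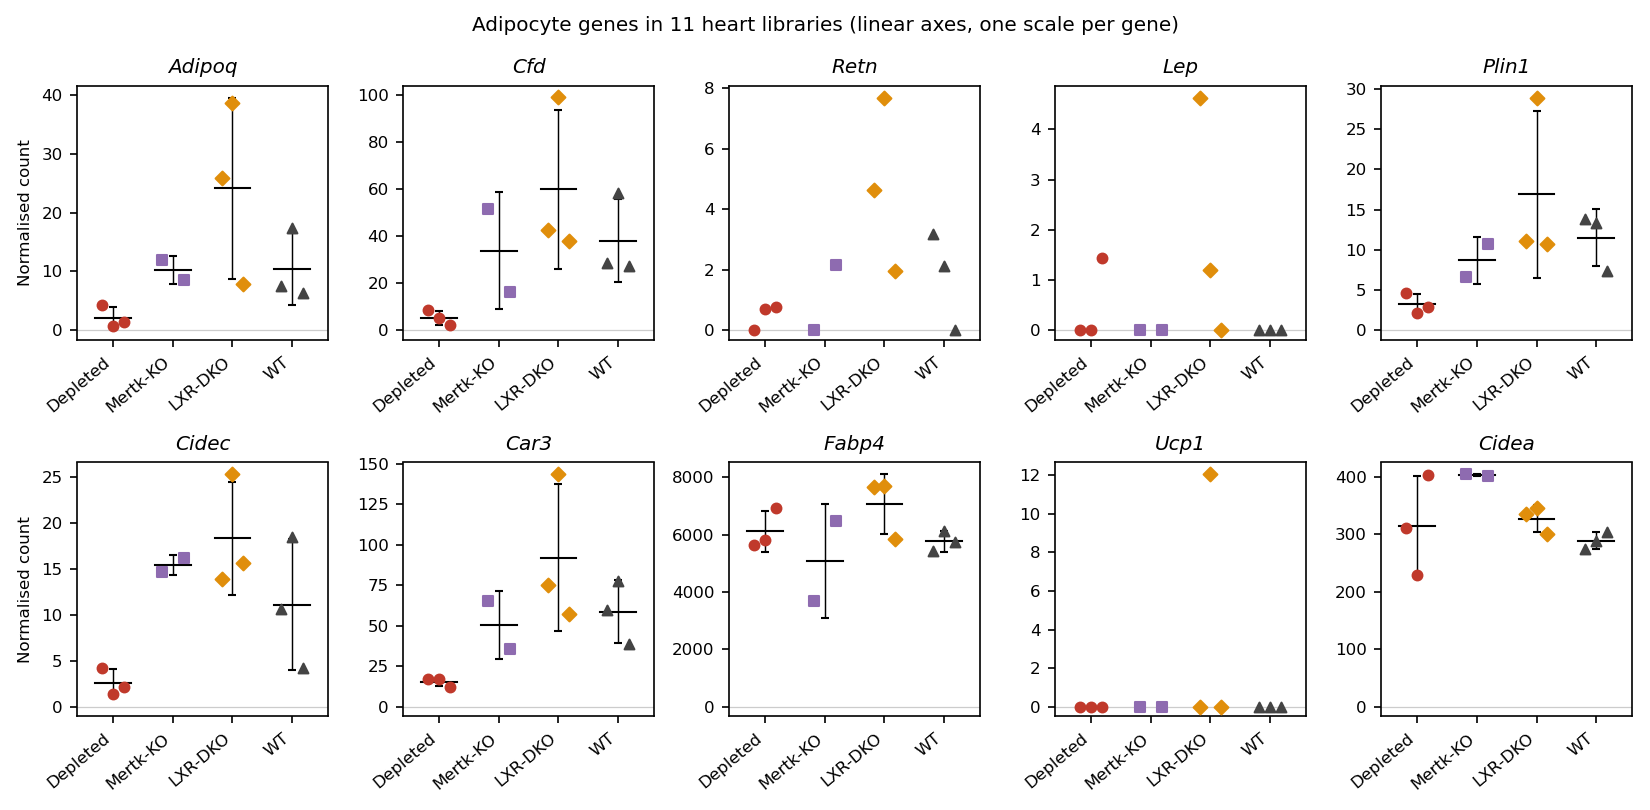
Normalised counts (y axis, linear, its own scale for each gene) of the 10 adipocyte genes, with 1 point per library in Macrophage-depleted (Depleted), Mertk-KO, LXR-DKO and WT hearts; bars are group means and whiskers the SD, omitted for Retn, Lep and Ucp1, which had libraries without reads. The Macrophage-depleted points lie at the bottom for Adipoq, Cfd, Car3 and Plin1, 1 LXR-DKO library is the highest for those genes and Cidec, and Fabp4 and Cidea do not follow this order.

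Among the adipokines, Adipoq encodes adiponectin, the hormone most abundantly secreted by fat cells. The gene lies at chr16:23146536-23158028 on the + strand of GRCm38. Its estimated reads were 3, 1 and 2 in Macrophage-depleted, 9 and 8 in Mertk-KO, 28, 32 and 8 in LXR-DKO and 7, 17 and 6 in WT hearts, in the order of their library numbers. In normalised counts these were 4.22, 0.707 and 1.44 in Macrophage-depleted, 11.9 and 8.62 in Mertk-KO, 25.9, 38.6 and 7.81 in LXR-DKO, and 7.44, 17.4 and 6.29 in WT hearts. Each Macrophage-depleted library lay below each of the others, and the other 3 groups overlapped. The order of group means was LXR-DKO (24.1 ± 15.5, n = 3), WT (10.4 ± 6.11, n = 3), Mertk-KO (10.3 ± 2.35, n = 2) and Macrophage-depleted (2.12 ± 1.86, n = 3; all SD), and none of these neighbours differed at an adjusted p of 0.05 by limma.

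Cfd encodes adipsin, a complement protease (factor D) secreted by adipocytes, and lies at chr10:79890853-79892655 on the + strand. It had 8.45, 4.95 and 2.16 normalised counts in Macrophage-depleted libraries, 51.5 and 16.2 in Mertk-KO, 42.6, 99.0 and 38.1 in LXR-DKO, and 28.7, 58.4 and 27.2 in WT libraries. All 3 Macrophage-depleted values lay below the lowest value elsewhere. Group means followed the order LXR-DKO (59.9 ± 33.9), WT (38.1 ± 17.6), Mertk-KO (33.8 ± 25.0) and Macrophage-depleted (5.18 ± 3.15), all SD. Only the last pair of neighbours, Macrophage-depleted and Mertk-KO, differed by limma (adjusted p = 0.0179).

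Retn and Lep encode resistin and leptin, hormones of mature white adipocytes, at chr8:3655770-3660110 and chr6:29060220-29073877 on the + strand. Retn was estimated at 0, 1 and 1.05 reads in Macrophage-depleted, 0 and 2 in Mertk-KO, 4.99, 6.37 and 2.01 in LXR-DKO, and 3, 2.06 and 0 in WT libraries. Lep had 0, 0 and 2 reads in Macrophage-depleted, none in either Mertk-KO library, 5, 1 and 0 in LXR-DKO, and none in any WT library. Most of these values lie at or below 3 reads, the smallest number taken here as detected, and both genes stayed below the filter, with means of 2.11 and 0.662 normalised counts. The WT libraries' 0 reads of Lep allow up to 1.04 normalised counts for the group together.

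The lipid droplet genes showed the same low end. Plin1 encodes perilipin, the coat protein of the adipocyte droplet that gates lipolysis, at chr7:79720218-79732903 on the − strand. It had 4.58, 2.12 and 2.88 normalised counts in Macrophage-depleted, 6.65 and 10.8 in Mertk-KO, 11.1, 28.9 and 10.8 in LXR-DKO, and 13.8, 13.3 and 7.38 in WT libraries, with the Macrophage-depleted values below the rest. Its mean over all libraries, 10.2, was just inside the filter. Cidec, which enlarges droplets by fusing them, lies at chr6:113424634-113435760 on the − strand. It had 4.22, 1.41 and 2.16 normalised counts in Macrophage-depleted, 14.6 and 16.2 in Mertk-KO, 13.9, 25.3 and 15.6 in LXR-DKO, and 10.6, 18.4 and 4.19 in WT libraries. Here WT library 3 lay among the Macrophage-depleted values, so those groups overlapped.

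Car3 encodes a carbonic anhydrase abundant in adipocytes and also in slow skeletal muscle, at chr3:14863512-14872523 on the + strand. It had 16.9, 17.0 and 12.2 normalised counts in Macrophage-depleted, 65.1 and 35.6 in Mertk-KO, 75.0, 143.6 and 57.4 in LXR-DKO, and 59.5, 77.8 and 38.8 in WT libraries. Of the 5 wide-ranging members it had the most reads, 12 to 119 a library, and its 3 Macrophage-depleted values stood apart below the other 8. The 8 genes on a skeletal muscle list summed to 37.3 to 39.3 normalised counts in Macrophage-depleted and 34.8 to 57.1 in WT libraries, ranges that overlap. Tnni2, the 1 gene of that list with enough reads to test, was lower without overlap, at 8.51 ± 1.79 in Macrophage-depleted and 16.4 ± 2.41 in WT libraries (log2 fold change −0.88, limma adjusted p = 0.81). The part of muscle in the Car3 level was not tested.

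Fabp4 lies at chr3:10204088-10208576 on the − strand. It had 5635, 5804 and 6946 normalised counts in Macrophage-depleted, 3671 and 6490 in Mertk-KO, 7651, 7700 and 5869 in LXR-DKO, and 5416, 6146 and 5746 in WT libraries. All 4 groups overlapped in part, and the lowest value was that of Mertk-KO library 1, not of a Macrophage-depleted heart. The summed level of 11 endothelial genes was 40972 to 43033 normalised counts in Macrophage-depleted and 41273 to 42501 in WT libraries. The share of Fabp4 that came from fat cells was not measured.

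For brown fat, Ucp1, the uncoupling protein, lies at chr8:83290352-83298452 on the + strand and had 10 reads in LXR-DKO library 2 and none in the other 10 libraries. Those 10 reads make 12.1 normalised counts in that library. Over the groups, LXR-DKO stood 3.26-fold above WT with WT set at a floor of 3 reads over the group. The exact 95% interval for counting error began at 2.19. Both values rest on 1 library. Cidea, at chr18:67343604-67367785 on the + strand, had 310, 229 and 403 normalised counts in Macrophage-depleted, 404 and 401 in Mertk-KO, 334, 345 and 301 in LXR-DKO, and 273, 289 and 304 in WT libraries. It was thus present in the 10 libraries without a Ucp1 read, and the Macrophage-depleted libraries held both its lowest value and one of its highest.

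The comparison of Macrophage-depleted with WT hearts asks what losing CD169+ macrophages changes in the heart. No member passed the adjusted p of 0.05 in a limma model of log2(normalised count + 1), where 0.238% of all genes passed. The 5 low-count members were lower in the fitted values. Cfd was 2.71 lower on the log2 scale (log2 fold change −2.71, SE 0.54, adjusted p = 0.0778) and Car3 had −1.83 (SE 0.36, adjusted p = 0.0757). Adipoq, Cidec and Plin1 had −1.90 (SE 0.64), −1.63 (SE 0.52) and −1.57 (SE 0.49), with limma adjusted p-values of 0.425, 0.390 and 0.369. At an unadjusted p of 0.05, 1046 of all 13884 genes passed, Cfd and Car3 among them. Adipoq, Cidec and Plin1 passed there too, but were tested only through their LXR-DKO level. Fabp4 had 0.08 (SE 0.18) and Cidea 0.08 (SE 0.16). Car3 and Cfd passed with array weights, with only these 2 groups fitted, or without Mertk-KO library 1 or 2, which enter the shared spread.

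Groups without overlap, Macrophage-depleted below WT, were seen for Cfd and Car3, and for 8.15% of all genes tested. The same held for Adipoq and Plin1, which were tested only through their LXR-DKO level and are not set against that share. In reads, the Macrophage-depleted hearts had 16 of Cfd in all and the WT hearts 110, a ratio of 0.119 per read sequenced (95% interval 0.0656 to 0.202). Car3 had 53 reads in Macrophage-depleted and 169 in WT hearts, a ratio of 0.256 (0.185 to 0.351). Adipoq had 6 and 30 reads in Macrophage-depleted and WT hearts, a ratio of 0.163 (0.0556 to 0.399), and Retn 2 and 5, a ratio of 0.327 (0.0311 to 2.00). These exact intervals cover counting error only and leave out the spread between libraries, which the limma test includes. In whole hearts, fewer fat cells and less of a transcript per fat cell cannot be told apart.

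The log2 scale with 1 added understates changes of genes this low. Macrophage-depleted libraries 2 and 3 were the deepest of the 11, with 20517786 and 20722295 reads, and held the lowest normalised counts of Adipoq, Cfd, Plin1 and Cidec. Library 1, which kept part of its Siglec1, was the shallowest of the 11 and the highest of its group for those 4 genes in normalised counts, but in reads it was below library 2 for Cfd and below library 3 for Plin1. The part of depth in these levels was not tested. The fitted difference from WT without that library was −3.09 for Cfd and −2.35 for Adipoq, with limma adjusted p-values of 0.0683 and 0.289, and negative for the other 3.

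Mertk-KO against WT hearts asks what loss of the phagocytic receptor does. None of the 7 tested members passed, while 9.27% of all genes did. Cfd had a log2 fold change of −0.29, Car3 of −0.23, Plin1 of −0.35, Adipoq of 0.10, Cidec of 0.63 and Fabp4 of −0.24. Cidea was higher in both Mertk-KO libraries than in any WT library (402 ± 1.94, n = 2, and 289 ± 15.3, n = 3; SD), with a log2 fold change of 0.48 (SE 0.18, limma adjusted p = 0.105). Such a separation upwards was seen for 21.4% of all genes. With 2 Mertk-KO libraries, 4 of these signs turned when single libraries were left out. Cidea passed without Macrophage-depleted library 2, which enters the shared spread, and Fabp4 without Mertk-KO library 2.

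LXR-DKO against WT hearts asks what the loss of the sterol-sensing nuclear receptors does. None of the 7 tested members passed, against 0.418% of all genes. All 7 fitted values were above 0, from 0.18 for Cidea and 0.28 for Fabp4 to 0.82 for Cidec and 1.02 for Adipoq (SE 0.64, limma adjusted p = 0.567), and no member's LXR-DKO libraries all lay above the WT ones, a separation seen for 12.0% of all genes. Adipoq had 68 reads in LXR-DKO and 30 in WT hearts, a ratio of 2.22 by counting error alone (95% interval 1.42 to 3.53), but LXR-DKO library 3 lay within the WT range.

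The largest log2 fold changes of the low-count members lay between Macrophage-depleted and LXR-DKO hearts. Cfd fell by 3.30 on the log2 scale (SE 0.54) and Car3 fell by 2.41 (SE 0.36), with limma adjusted p-values of 0.0071 and 0.00448. These are 2 of the 10 members, and 1.89% of all genes tested fell. Car3 and Cfd passed in each alternative in which they were tested; on the per-million scale, where neither was tested, no member passed.

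Adipoq, Cidec and Plin1 also passed there, but they entered the test only through the LXR-DKO libraries, in which they are high. Without those libraries their means were 7.26, 8.98 and 7.69 normalised counts over the other 8, below the filter of 10, so their calls are given as values and not counted with the others. Adipoq had a log2 fold change of −2.92 (SE 0.64, limma adjusted p = 0.0324), Cidec of −2.45 (SE 0.52, adjusted p = 0.029) and Plin1 of −1.99 (SE 0.49, adjusted p = 0.049). With no filter on low values, these became 0.0574, 0.0518 and 0.082 and none of the 3 passed. None passed in the TPM table, or without any 1 of LXR-DKO libraries 1 and 2 and Macrophage-depleted libraries 2 and 3. Plin1 passed in 7 of its 21 alternatives, and Adipoq and Cidec in 15 of 21 each.

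Fabp4 had −0.20 (limma adjusted p = 0.553) and Cidea −0.09 (adjusted p = 0.785), and Retn, Lep and Ucp1 were not tested. Macrophage-depleted values lay below every LXR-DKO value for Cfd and Car3, as for 14.6% of all genes tested. The same held for Adipoq, Plin1 and Cidec, tested only through the LXR-DKO libraries, and for Retn, not tested. These are not set against that share. Without Macrophage-depleted library 1, Plin1 did not pass (adjusted p = 0.0597 by limma). Car3 and Cfd passed, and so did Adipoq and Cidec, with the limit given above.

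Macrophage-depleted against Mertk-KO hearts gave an intermediate picture. Cfd fell by 2.42 (SE 0.60), Car3 fell by 1.60 (SE 0.40) and Cidec fell by 2.26 (SE 0.58) on the log2 scale, with limma adjusted p-values of 0.0179, 0.0187 and 0.0207. With no filter on low values the same 3 genes passed. Adipoq had −2.00 (adjusted p = 0.0646) and Plin1 −1.22 (adjusted p = 0.129). Cfd and Car3 are 2 of the 10 members, where 9.39% of all genes tested fell, in the comparison with the most calls of the 6. Cidec, with a mean of 8.98 normalised counts without the LXR-DKO libraries, was tested only through them and is not counted with Cfd and Car3. Macrophage-depleted values lay below both Mertk-KO values for Cfd and Car3, as for 22.6% of all genes tested. The same held for Adipoq, Plin1 and Cidec, tested only through the LXR-DKO libraries and not set against that share. Without Mertk-KO library 1, Cidec was the one member that passed, and without Macrophage-depleted library 3 it was Cidea. Without Macrophage-depleted library 1, 4 members passed, Adipoq among them. None passed with array weights, with only these groups fitted or in the TPM table. Mertk-KO against LXR-DKO hearts called no member, where 2.46% of all genes passed, and Cidea was the member whose groups did not overlap, higher in Mertk-KO, as for 15.1% of all genes. Without Mertk-KO library 2, Fabp4 passed there. Comparisons above share the Macrophage-depleted or WT libraries and are not independent of each other.

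**Figure D2:**
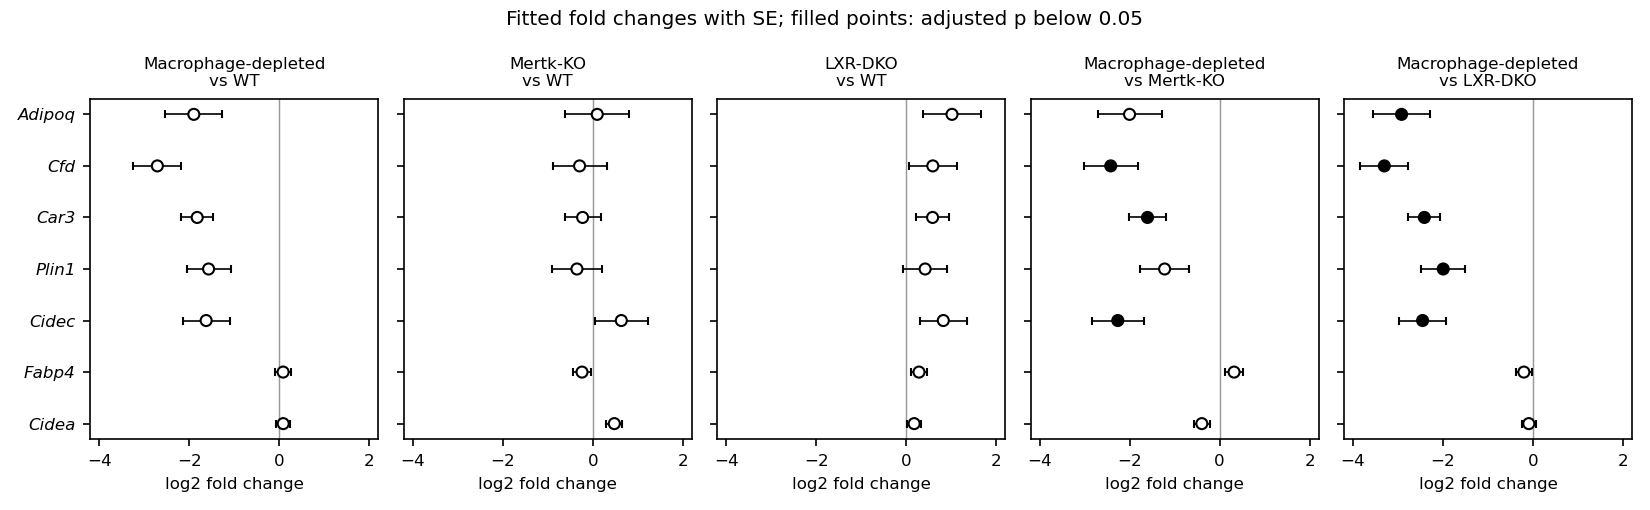
Fitted log2 fold changes (x axis, first-named group over second) with their SE for the 7 tested members (y axis) in 5 comparisons; filled points have a limma adjusted p below 0.05. Filled points are seen for 3 members against Mertk-KO and 5 against LXR-DKO, and none against WT. Adipoq, Plin1 and Cidec, the last filled in both, were tested only through their LXR-DKO level. Fabp4 and Cidea stay within 0.5 of 0 throughout.

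Cfd, Car3, Plin1 and Cidec followed Adipoq across libraries. On the log2(normalised count + 1) scale over 11 libraries, Car3 followed Adipoq with Pearson's r of 0.925 (permutation p = 4e-05, two-sided) and Spearman's rho of 0.900 (permutation p = 0.00041). Cfd followed with r of 0.914 (permutation p = 8e-05) and rho of 0.909 (p = 0.00025), Cidec with 0.907 (4e-05) and 0.873 (0.00079), and Plin1 with 0.899 (0.00024) and 0.791 (0.00557). Of 9 relations computed, these 4 passed after Benjamini-Hochberg adjustment, with adjusted permutation p of 0.00018 to 0.00054 for r. Without the libraries farthest from the median Adipoq level, LXR-DKO 2 and Macrophage-depleted 2, r was 0.897 for Car3, 0.881 for Cfd, 0.829 for Cidec and 0.767 for Plin1.

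Because the Macrophage-depleted libraries sit together at the low end, r was also taken over deviations from group means. It was then 0.717 for Car3, 0.700 for Cidec, 0.698 for Cfd and 0.664 for Plin1. Genes outside the members reached higher values, given below. Over the 8 libraries that were not Macrophage-depleted, r was 0.873 for Car3, 0.787 for Cfd, 0.668 for Cidec and 0.665 for Plin1. The genes also ranked the libraries alike: LXR-DKO 2 was the highest for all 5, and the Macrophage-depleted libraries were the lowest 3 for all but Cidec. The share of all genes with such ranks was not computed, and these related genes are not independent of each other.

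Fabp4 and Cidea did not pass. Fabp4 had an r of 0.207 (permutation p = 0.54) and a rho of 0.418, and Cidea an r of 0.285 (p = 0.395) and a rho of 0.300, and without the farthest libraries both r values were below 0. Over the 8 libraries that were not Macrophage-depleted, r was 0.523 for Fabp4 and 0.194 for Cidea. Retn had an r of 0.626 (permutation p = 0.0402, adjusted p = 0.0724) and Lep of 0.354 (p = 0.285), each on few reads, and Ucp1's 0.525 (p = 0.184) rests on 1 library. Ranked by r with Adipoq among all genes tested, Car3 was at place 5, Cfd 7, Cidec 11 and Plin1 13, against 4090 for Cidea and 4822 for Fabp4. Adipoq itself was counted in this ranking, at its top.

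**Figure D3:**
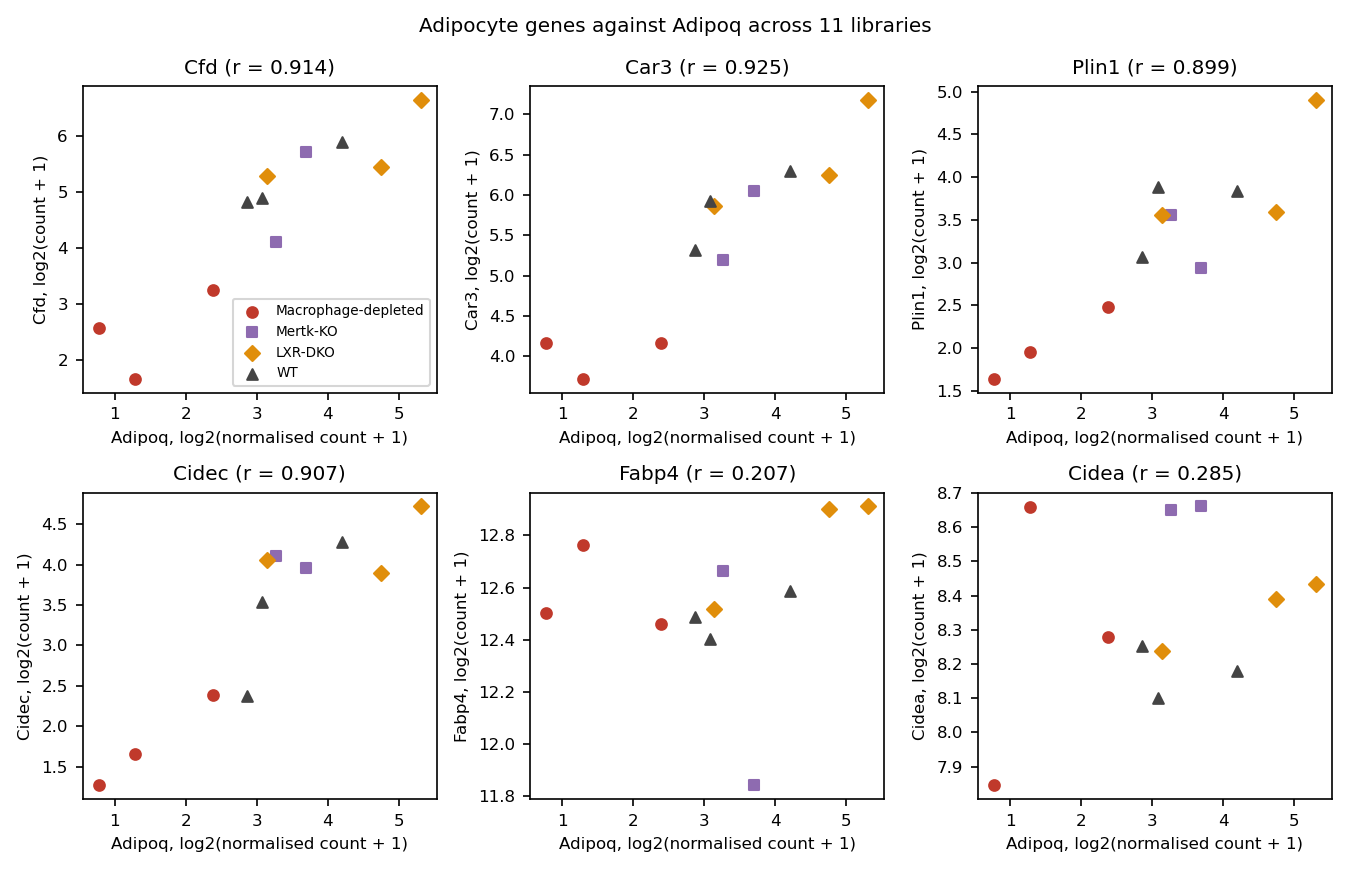
Levels of 6 adipocyte genes (y axis) against Adipoq (x axis), both as log2(normalised count + 1), with 1 point per library coloured by group and Pearson's r in each title. Cfd, Car3, Plin1 and Cidec climb from the Macrophage-depleted libraries to LXR-DKO library 2, with r between 0.899 and 0.925, while Fabp4 and Cidea scatter.

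The 10 non-member genes most like Adipoq by the same r included Ilk (integrin-linked kinase, r = 0.947), Ctsf (the lysosomal protease cathepsin F, 0.934), R3hcc1 (0.926), Ppm1j (0.925) and Kat2a (a histone acetyltransferase, 0.908). Cdpf1 and Clec4n, a C-type lectin of myeloid cells, each had 0.899, and Ehd2, an ATPase of caveolae, had 0.895. Rn7s1 and Rn7s2, near-identical copies of the signal recognition particle RNA with the same values in each library, had 0.908 and are uncertain as single genes. Most of these moved far less than Adipoq itself. Ilk averaged 853 ± 53.7 normalised counts in Macrophage-depleted and 962 ± 27.6 in WT libraries (SD, n = 3 each). With 11 libraries, genes of high r are drawn from 13884, and the r values describe these libraries.

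Other genes of fat cells varied in direction. Among 18 genes of lipid storage and lipolysis, all tested, none passed between Macrophage-depleted and WT hearts, and their median log2 fold change was −0.13, beside 0.00293 over all genes. None passed there among 11 genes of fatty acid synthesis (median −0.17), 7 tested adipogenic transcription factors (0.25), 7 tested brown and beige thermogenic genes (−0.22), 9 tested other fat-enriched genes (−0.22) or 6 tested adipocyte precursor genes (0.24). No member passed there either. Pck1, an enzyme of glyceroneogenesis in fat, had a log2 fold change of −1.44 (2.38 ± 2.32 normalised counts in Macrophage-depleted and 7.35 ± 3.27 in WT libraries; SD, n = 3 each), with overlapping groups. Angptl4, an inhibitor of lipoprotein lipase, had −1.34 (114 ± 66.4 in Macrophage-depleted and 261 ± 84.9 in WT libraries), with no overlap. Both are of a size with Plin1 and Cidec, while Sncg and Rarres2 of the same list had 0.55 and 0.38. Many of these genes are also used by cardiomyocytes or stroma. In Mertk-KO against WT hearts, G0s2, an inhibitor of the lipase Pnpla2, rose by 0.76 (SE 0.19, limma adjusted p = 0.0312) and was the 1 storage gene of 18 to pass, where 9.27% of all genes did. It averaged 548 ± 210 normalised counts in Mertk-KO (SD, n = 2) and 312 ± 34.9 in WT libraries (SD, n = 3), and passed in 14 of 23 alternatives.

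Against LXR-DKO hearts, Scd1 and Pck1 were lower in Macrophage-depleted hearts past the threshold, as were 1.89% of all genes. Scd1, the stearoyl-CoA desaturase and a known LXR target, had 169.6, 231.8 and 192.6 normalised counts in Macrophage-depleted and 663, 1419 and 329 in LXR-DKO libraries. It was lower by 1.78 (SE 0.39, limma adjusted p = 0.0343), 1 of 11 synthesis genes, and passed in 14 of 23 alternatives. In WT libraries Scd1 averaged 247 ± 58.1 (SD), near the Macrophage-depleted mean of 198 ± 31.4 and below each LXR-DKO value. Between Macrophage-depleted and WT hearts its log2 fold change was −0.30 (limma adjusted p = 0.974). Pck1 had 1.41, 0.707 and 5.04 normalised counts in Macrophage-depleted and 26.9, 39.9 and 8.79 in LXR-DKO libraries. It fell by 2.94 (SE 0.65, limma adjusted p = 0.0345), 1 of the 9 tested among other fat-enriched genes. It passed in 12 of 21 alternatives and, with a mean of 5.65 without the LXR-DKO libraries, was likewise tested only through them. Cox7a1, Cox8b and Kcnk3, 3 of 7 tested thermogenic genes, fell as well, by 0.49, 0.57 and 0.39, in 13 to 17 of 23 alternatives, and all 3 are also expressed by heart muscle. None of the 18 storage genes passed.

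Against Mertk-KO hearts, 7 of 18 storage genes were lower in Macrophage-depleted hearts past the threshold, as were 9.39% of all genes. None of the 18 passed between Macrophage-depleted and WT hearts. Among them, the droplet coats Plin2 and Plin5 passed in 20 and 17 of 23 alternatives and the lipase Pnpla2 in 9 of 23. Plin2 had 641.9, 758.7 and 776.3 normalised counts in Macrophage-depleted and 1012 and 973.3 in Mertk-KO libraries, and a WT mean of 794. Plin5 averaged 1274 in Macrophage-depleted, 1384 in WT and 1822 in Mertk-KO libraries, and Pnpla2 averaged 3980, 4357 and 5212. G0s2, also among the 7, averaged 324 in Macrophage-depleted, 312 in WT and 548 in Mertk-KO libraries, so it was not lower than in WT. Cebpa, a factor that maintains the adipocyte state and is also used by myeloid cells, fell as 1 of 7 tested adipogenic factors. It had 31.0, 36.3 and 30.9 normalised counts in Macrophage-depleted and 78.3 and 76.5 in Mertk-KO libraries, and a WT mean of 47.7. None of the fatty acid synthesis genes passed there.

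Other tissue at the surface of the heart also varied between libraries, and its part in the members' levels was not tested. The 5 tested mesothelial genes, which mark the epicardial and pericardial lining, had a median log2 fold change of 1.83 between Macrophage-depleted and WT hearts, none past the threshold. Upk3b had 85.9, 85.6 and 80.6 normalised counts in Macrophage-depleted, 2.66 and 15.1 in Mertk-KO, 61.1, 118.3 and 32.2 in LXR-DKO, and 61.7, 69.6 and 2.10 in WT libraries. Over the 10 mesothelial genes the sums were 262 to 313 in Macrophage-depleted libraries, with none at 0, and 52.4 to 244 in WT libraries, where library 3 had 6 of 10 genes at 0. The Macrophage-depleted libraries, low for the adipocyte members, were not low for the lining genes. Within WT, library 3 was the lowest for the lining genes and for Adipoq, Cfd, Car3, Plin1 and Cidec, and LXR-DKO library 2 was the highest of its group for both. WT library 3 was close to WT library 1 for Adipoq (6 and 7 reads) and Cfd (26 and 27 reads). Mertk-KO library 1 had the lower mesothelial sum (79.9, against 113 in library 2), but the higher Adipoq, Cfd and Car3. Its Plin1 and Cidec were lower.

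Atrial genes summed to 3159 to 6233 normalised counts in Macrophage-depleted and 3465 to 25595 in WT libraries, with 4 tested and none past the threshold. Macrophage genes had a median of −1.16 in the same comparison, and 2 of 10, Timd4 and Cd163, fell. B cell genes summed to 57.6 to 159 in Macrophage-depleted and 174 to 222 in WT libraries. Thymocyte genes, markers of a mediastinal neighbour, summed to 13.1 to 23.9 in Macrophage-depleted and 9.53 to 21.0 in WT libraries. Endothelial and cardiomyocyte genes had medians of −0.09 and −0.03 with none past the threshold.

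**Figure D4:**
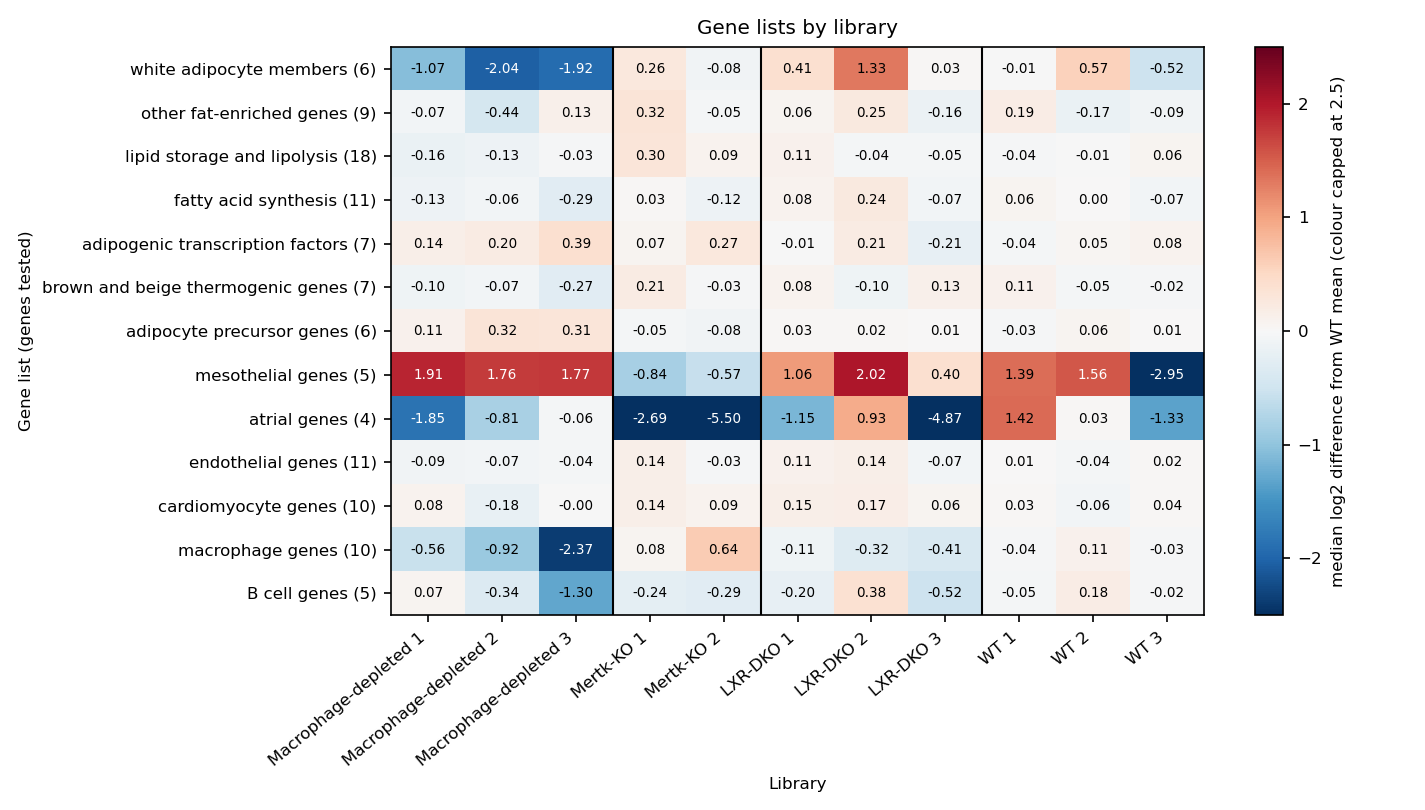
Median log2 difference from the WT mean (colour and printed number) of the tested genes of 13 lists (rows, genes tested in brackets) in each of the 11 libraries (columns). The row of the white adipocyte members is −1.07 to −2.04 in the Macrophage-depleted libraries and 1.33 in LXR-DKO 2, while the other fat-related rows stay within 0.5 of 0 and the mesothelial and atrial rows vary within groups.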

How the data were processed

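RNA-seq of 11 mouse hearts was analysed from 2 tables. The authors deposited a table of normalised counts, a depth-scaled signal to which 0.5 read had been added, so the smallest value of a library stands for 0.5 read; reads were estimated from it. Of low values, 58.2% to 62.3% came out whole within 0.01 read, so no count test was used. The authors also deposited a normalised TPM signal table. CASAVA 1.8.2, cutadapt, RSEM 1.2.20, kallisto 0.43.1 and GRCm38 are named, with no roles, per the submitters' processing notes. Gene names came from GENCODE M21 (35469 of 35584 IDs).

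Reads were scaled to the mean effective library size. Genes with a mean of at least 10 were fitted with limma 3.58.1 (R 4.3.3; trend, 1 model of 4 groups, 7 residual degrees of freedom) on log2(normalised count + 1). P-values were Benjamini-Hochberg adjusted over 13884 genes, and the script was tested on simulated data. Relations to Adipoq used 100000 permutations (scipy 1.17.1). Genes outside the members are named from 16 lists or as the 10 most like Adipoq. Read ratios have exact 95% intervals, for counting error only. Samples were grouped by title and genotype, 6 pairs of groups were compared, and the members and lists were chosen with earlier results of these data known. Alternatives changed the pseudocount, filter, scaling, table, weights, samples and replicate block. Of 148 listed symbols, 2 (Cebpd and Gyk) were not matched.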

Additional observations from a re-analysis of the deposited data

How the results depend on the processing

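Members past the threshold were counted under each alternative. Against WT, the Macrophage-depleted hearts had 0, but 2 with array weights, 2 with only the 2 groups fitted, and 0 to 2 when single libraries were left out (Car3 and Cfd without Mertk-KO library 1 or 2). Between Macrophage-depleted and Mertk-KO hearts the count was 3, among them Cidec, tested only through its LXR-DKO level. It was 0 under array weights, only the 2 groups or the TPM table. It was 0 on the per-million scale (added after seeing the data), where 2 members were tested. With a mean of at least 50, where 3 members were tested, it was 1. With a single Macrophage-depleted, LXR-DKO or WT library left out it was 1 to 4. Between Macrophage-depleted and LXR-DKO hearts the count was 5, but Adipoq, Cidec and Plin1 were tested only through their LXR-DKO level. It was 2 under no filter or the TPM table, and 1 with a mean of at least 50, where 3 members were tested. On the per-million scale, where 2 members were tested, it was 0. With a single Macrophage-depleted, LXR-DKO or WT library left out it was 2 to 5. Car3 and Cfd alone passed without LXR-DKO library 1 or 2 or Macrophage-depleted library 2 or 3. Plin1 there (adjusted p = 0.049) also missed the threshold with median-of-ratios scaling (0.0504), pseudocount 5 (0.0605), only the 2 groups (0.0665), the replicate block (0.0666) and any WT library left out (0.0667 to 0.0781). The counts of 0 for Mertk-KO against WT and against LXR-DKO became 0 to 1 with libraries left out, and the 4 relations to Adipoq 4 to 5. The causes were not tested.

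Same-numbered libraries of different groups correlated at −0.0937 to 0.107, so the numbers do not pair them. The replicate block gave 4 members between Macrophage-depleted and LXR-DKO hearts, with Adipoq and Cidec among them, tested only through their LXR-DKO level. For Adipoq in Mertk-KO against WT it gave −0.23, and the TPM table −0.00587, beside 0.10. With single libraries left out, that value ran from −0.16 to 0.51, Cfd from −1.10 to 0.51, Car3 from −0.65 to 0.20 and Fabp4 from −0.65 to 0.17. Plin1 in LXR-DKO against WT ran from −0.021 to 0.65. Fabp4 and Cidea ran from −0.011 to 0.14 and −0.11 to 0.29 in Macrophage-depleted against WT. Fabp4 against Mertk-KO ran from −0.089 to 0.73, Cidea against LXR-DKO from −0.29 to 0.12, and Cidec in Mertk-KO against LXR-DKO from −0.35 to 0.057. The r with Adipoq ran from −0.0114 to 0.53 for Fabp4 and −0.131 to 0.589 for Cidea. Counts over all genes ranged, across settings, over 3 to 219 for Macrophage-depleted against WT (33 as reported), 1 to 2399 for Mertk-KO against WT (1287), 25 to 593 for LXR-DKO against WT (58), 146 to 3237 for Macrophage-depleted against Mertk-KO (2911), 135 to 2043 against LXR-DKO (450), and 19 to 2168 for Mertk-KO against LXR-DKO (341). Depth limits Retn, Lep and Ucp1, of which 3, 8 and 10 libraries had no read.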

Other observations

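LXR-DKO library 2, the highest for Adipoq, Cfd, Car3, Plin1 and Cidec and the one with Ucp1 reads, was also the highest for several other genes of fat. These were picked after their values were seen and are not tested, and their lists did not all go that way. In that library the median log2 difference from the WT mean was −0.10 for thermogenic genes, −0.04 for lipid storage, 0.24 for fatty acid synthesis and 0.25 for other fat-enriched genes. Adrb3, the beta-3 adrenergic receptor of adipocytes, had 8 reads there and 0 to 4 elsewhere. Acvr1c, a receptor of the TGF-beta family found in fat, had 12 reads there and 0 to 8 elsewhere. Tshr, the thyrotropin receptor, had 7 reads there and 0 to 4 elsewhere. Scd1 stood at 1419 normalised counts in that library, against 180 to 285 in the WT libraries, and Fasn, the fatty acid synthase, at 717, against 432 to 488 in the WT libraries. Otop1, a proton channel of brown fat, had 3 reads there, 2 in Macrophage-depleted library 3 and 1 in LXR-DKO library 3. Upk3b of the mesothelial lining, at 118 normalised counts, was highest in the same library.

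Srebf1, the sterol response element factor that LXR induces, was the 1 of 11 fatty acid synthesis genes to pass between Mertk-KO and LXR-DKO hearts. Of all genes tested, 2.46% passed there. Srebf1 stood at 537 and 515 normalised counts in Mertk-KO and 377, 324 and 293 in LXR-DKO libraries.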
